A study of Mus musculus with 16 samples.

Results

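Neurexins and neuroligins are the adhesion molecules that join the presynaptic and postsynaptic sides of a synapse, and 5 of their genes were followed in frontal cortex (FC) and cerebellum (Cere) of mice with and without Upf3b: Nrxn2, Nrxn3, Nlgn1, Nlgn2 and Nlgn3. All transcripts of these genes in the deposited tables were taken, which gave 47 of 142435 transcripts and 5 of 55266 genes. Of the 47, 18 belonged to Nrxn2, 14 to Nrxn3, 5 to Nlgn1, 4 to Nlgn2 and 6 to Nlgn3, and 46 were above 0 in at least 1 deep library.

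RNA came from adult Upf3b-null mice (Upf3b-KO) and littermate controls (Ctrl), in groups of 4 libraries named FC_Ctrl, FC_Upf3b-KO, Cere_Ctrl and Cere_Upf3b-KO. Upf3b is an X-linked gene for a factor of nonsense-mediated decay (NMD), which removes many RNAs whose stop codon lies upstream of an exon junction, and the series asked which RNAs depend on it in the brain. The labels give genotype and tissue only, with no allele, strain, age in weeks or sex. The study describes 4 mice per genotype but the labels do not tie a library to a mouse, so p-values measure the spread between these libraries.

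The deep libraries held 27660078 to 35238677 counts. Cere_Upf3b-KO library 1 held 64981 and was left out, so that this group has n = 3 and libraries 2 to 4, while the other groups have n = 4. A count of 3 equals 46.2 CPM (counts per 1000000 counts of the library) there and 0.0851 to 0.108 CPM in the deep libraries. Upf3b, the targeted gene, was at 14.8 ± 0.637 CPM (SD) in FC_Ctrl and 0.559 ± 0.257 in FC_Upf3b-KO, and at 22.7 ± 1.23 in Cere_Ctrl and 0.737 ± 0.198 in Cere_Upf3b-KO. The tissues matched their labels: Gabra6, a receptor subunit of granule cells, was at 739.9 to 756 CPM in Cere_Ctrl and 0 to 0.155 in FC_Ctrl, and Tbr1, a transcription factor of cortical excitatory neurons, at 49.0 to 50.1 in FC_Ctrl and 0.330 to 0.615 in Cere_Ctrl. Markers of neighbouring tissue separated the genotypes. The summed level of 6 choroid plexus genes was 20.8 to 22.1 CPM in FC_Ctrl and 2156 to 2209 in FC_Upf3b-KO, and 25.0 to 28.8 in Cere_Ctrl and 1369 to 1391 in Cere_Upf3b-KO.

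Neurexins sit mainly in the presynaptic membrane and neuroligins in the postsynaptic membrane, and they bind each other across the cleft. Each neurexin gene makes a long alpha form and a short beta form from an internal promoter, and alternative exons diversify both. The exon at splice site 4 lies in the part of the protein that binds neuroligins, LRRTMs and cerebellins, and inserts at sites A and B of neuroligins alter which partners they bind. Nlgn1 is known from excitatory synapses, Nlgn2 from inhibitory synapses and Nlgn3 from both.

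The genes lie far apart in the mouse genome (GRCm39). Nrxn3 (ENSMUSG00000066392) spans chr12:88689646-90301709, + strand, and Nrxn2 (ENSMUSG00000033768) spans chr19:6468761-6594199, + strand. Nlgn1 (ENSMUSG00000063887) spans chr3:25480379-26386609, - strand, Nlgn2 (ENSMUSG00000051790) spans chr11:69713948-69728613, - strand, and Nlgn3 (ENSMUSG00000031302) spans chrX:100342750-100369570, + strand. Nlgn3 shares the X chromosome with Upf3b.

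The alternative coding segments that the isoform results turn on are shown first, 5′ to 3′ on the strand of the gene, with the segment in capitals and the 10 bases beside it in lower case. The beta first coding exon of Nrxn3 (chr12:89780170-89780410, + strand, 241 nt) tells a beta transcript from an alpha transcript and is printed from its start codon. The splice site 4 exon of Nrxn3 (chr12:90165921-90166010, + strand) is 90 nt long with introns on either side. The site A exons of Nlgn1 (chr3:25974342-25974401, - strand) and Nlgn3 (chrX:100346678-100346737, + strand) are both 60 nt. Only 16 of 60 bases are identical, so they are not taken as counterparts. For Nlgn3 the name means the printed exon only, and whether its other forms hold another insert at this site was not examined. The 27-nt segment of Nlgn1 at site B (chr3:25494029-25494055, - strand) extends the end of an exon, so the bases before it are exonic.
Nrxn3 beta first coding exon: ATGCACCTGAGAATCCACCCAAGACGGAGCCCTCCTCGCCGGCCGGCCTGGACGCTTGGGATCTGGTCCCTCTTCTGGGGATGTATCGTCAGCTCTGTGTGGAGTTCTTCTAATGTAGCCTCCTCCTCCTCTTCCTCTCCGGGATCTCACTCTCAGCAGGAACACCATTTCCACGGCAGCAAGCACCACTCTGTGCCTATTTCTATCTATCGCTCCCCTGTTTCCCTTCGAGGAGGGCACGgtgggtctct
Nrxn3 splice site 4 exon: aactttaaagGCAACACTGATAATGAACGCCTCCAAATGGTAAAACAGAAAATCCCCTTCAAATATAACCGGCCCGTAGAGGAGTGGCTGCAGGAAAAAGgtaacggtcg
Nlgn1 site A exon: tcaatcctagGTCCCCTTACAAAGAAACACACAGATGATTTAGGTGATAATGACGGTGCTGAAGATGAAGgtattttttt
Nlgn1 site B segment: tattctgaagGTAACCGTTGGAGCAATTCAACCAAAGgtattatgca
Nlgn3 site A exon: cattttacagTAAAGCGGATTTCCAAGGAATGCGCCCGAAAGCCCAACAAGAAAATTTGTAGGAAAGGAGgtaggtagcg

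The levels of the 5 genes were first compared per length in the Ctrl tissues. In FC_Ctrl, counts divided by transcript length and scaled to a total of 1000000 (TPM) put Nlgn3 at 66.7 ± 1.92, Nrxn3 at 66.5 ± 2.01, Nrxn2 at 58.6 ± 5.30, Nlgn1 at 35.8 ± 1.08 and Nlgn2 at 13.2 ± 0.494 (SD, n = 4). The first 3 of this order were not apart, since Nrxn2 ranged from 53.3 to 65.9 TPM and Nrxn3 from 63.7 to 68.0. In Cere_Ctrl the order was Nrxn3 at 164 ± 4.89, Nrxn2 at 73.2 ± 4.40, Nlgn3 at 54.8 ± 4.25, Nlgn1 at 17.6 ± 1.19 and Nlgn2 at 10.3 ± 0.400 TPM, and no neighbours in this order overlapped. Upf3b-KO cerebellum kept that order of the means, with Nrxn3 at 105 ± 0.440 and Nlgn2 at 8.79 ± 0.530 TPM, and Upf3b-KO frontal cortex ran from Nrxn3 at 74.4 ± 2.30 to Nlgn2 at 12.0 ± 0.0464 TPM. The place of Nrxn2 rested on short non-coding transcripts, which held 6.99% of its counts but 32.0% of its TPM in Cere_Ctrl. With coding transcripts only, Nrxn2 was at 49.8 ± 3.91 TPM in Cere_Ctrl, overlapping Nlgn3 at 54.8 ± 4.30, and in Cere_Upf3b-KO it was at 36.1 ± 3.42, below Nlgn3 at 48.7 ± 1.27. In FC_Ctrl coding Nrxn2 was at 39.6 ± 1.54 TPM, below Nrxn3 at 60.6 ± 3.30 and Nlgn3 at 64.7 to 69.4, and these 3 did not overlap.

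Neurexins were higher and neuroligins lower in Ctrl cerebellum than in Ctrl frontal cortex. A gene passed the test where edgeR's quasi-likelihood F test on its summed counts gave an adjusted p under 0.01 (Benjamini-Hochberg over all genes), and all 5 did. On the log2 scale Nrxn3 was higher by 1.07 ± 0.03 (SE, adjusted p = 5.13e-19) and Nrxn2 by 0.21 ± 0.03 (adjusted p = 1.01e-05), while Nlgn1 differed by -1.04 ± 0.03 (8.98e-17), Nlgn2 by -0.46 ± 0.05 (5.04e-08) and Nlgn3 by -0.42 ± 0.02 (2.33e-12). Of 17521 genes tested, 34.4% were higher and 35.1% lower in cerebellum by the same rule, and 25.1% were also over 2-fold apart, as Nrxn3 and Nlgn1 were. In each of the 5 genes the Cere_Ctrl libraries lay outside the range of the FC_Ctrl libraries. Such separation was not counted over all genes, here or in the comparisons below, so it describes the values only.

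**Figure D1:**
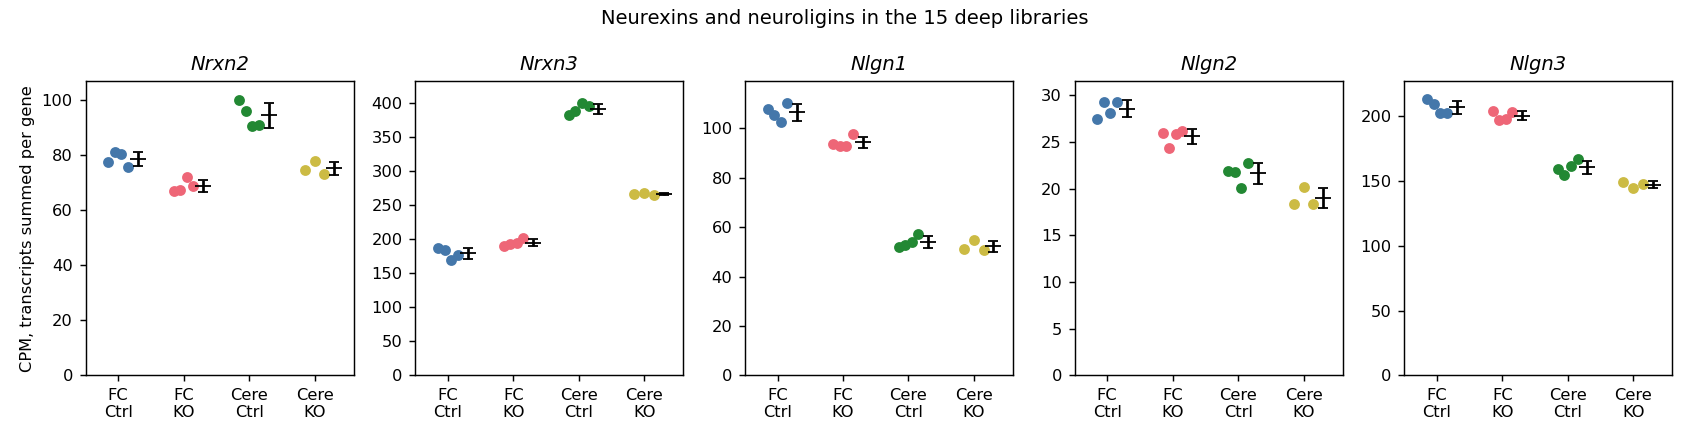
CPM of each gene, transcripts summed, in the 15 deep libraries; points are libraries and black marks are the mean ± SD of a group. Nrxn3 stood at 382 to 400.1 CPM in Cere_Ctrl and 265 to 268 in Cere_Upf3b-KO, while in FC the Upf3b-KO libraries lay at 190.2 to 201 and the Ctrl libraries at 169.8 to 188.

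In Upf3b-KO cerebellum both neurexins fell. Nrxn3 measured 382, 388, 400.1 and 395 CPM in the Cere_Ctrl libraries and 267, 268 and 265 in the Cere_Upf3b-KO libraries. The groups lay far apart, the fitted level was 65.9% of Ctrl, and the log2 fold change was -0.60 ± 0.02 (SE, adjusted p = 1.53e-15, edgeR). Nrxn2 measured 100.0, 95.8, 90.7 and 91.0 CPM in Ctrl and 74.4, 77.9 and 73.1 in Upf3b-KO, again without overlap, with a log2 fold change of -0.38 ± 0.04 (adjusted p = 2.36e-08). Both lay under every Ctrl library in 3 of 3 Upf3b-KO libraries.

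The neuroligins had smaller fold changes in cerebellum. Nlgn3 measured 159, 155, 161 and 167 CPM in Ctrl and 149, 144 and 148 in Upf3b-KO, without overlap, with a log2 fold change of -0.17 ± 0.03 (adjusted p = 9.78e-06). Nlgn2 measured 21.9, 21.7, 20.1 and 22.7 CPM in Ctrl and 18.4, 20.2 and 18.3 in Upf3b-KO, which overlapped, with a log2 fold change of -0.24 ± 0.06 (adjusted p = 0.00230). That call was lost without Cere_Upf3b-KO library 2 (adjusted p = 0.0143), without library 4 (0.0160) and with libraries scaled by their totals alone (0.0124). It was also lost with library number added to the model as a block. Nlgn1 measured 51.8, 52.6, 53.8 and 57.2 CPM in Ctrl and 51.0, 54.7 and 50.8 in Upf3b-KO, which overlapped, and did not pass the test (-0.09 ± 0.04, adjusted p = 0.0553). In all, 4 of 5 genes were lower and 0 higher, where 26.8% of 17785 genes tested were lower and 28.5% higher. None of the 5 was over 2-fold apart, which 13.2% of all genes were.

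In Upf3b-KO frontal cortex Nrxn2 fell and Nrxn3 did not pass the test. Nrxn2 measured 77.5, 81.2, 80.2 and 75.5 CPM in FC_Ctrl and 67.1, 67.4, 71.8 and 68.8 in FC_Upf3b-KO, without overlap, with a log2 fold change of -0.27 ± 0.03 (adjusted p = 2.01e-07). Nrxn3 measured 188, 184, 169.8 and 176 CPM in Ctrl and 190.2, 193, 195 and 201 in Upf3b-KO. Every Upf3b-KO library was above every Ctrl library in CPM, yet the fitted log2 fold change was 0.05 ± 0.03 (adjusted p = 0.157, 95% interval -0.01 to 0.10). The fit scaled libraries with TMM factors, and the median log2 fold change of all genes was 0.00. With library totals alone that median was 0.08, and Nrxn3 was higher by 0.12 (adjusted p = 5.03e-04).

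All 3 neuroligins fell in Upf3b-KO frontal cortex, though the Nlgn3 call was lost with library totals alone. Nlgn1 measured 108, 105, 102 and 110.4 CPM in Ctrl and 93.5, 93.0, 93.0 and 97.5 in Upf3b-KO, with a log2 fold change of -0.25 ± 0.03 (adjusted p = 9.26e-08). Nlgn2 measured 27.5, 29.3, 28.1 and 29.3 CPM in Ctrl and 26.0, 24.4, 25.8 and 26.2 in Upf3b-KO (-0.23 ± 0.05, adjusted p = 2.01e-04). Neither gene overlapped between the groups. Nlgn3 measured 213, 209, 202 and 203 CPM in Ctrl and 204, 196, 198 and 203 in Upf3b-KO, which overlapped, with a log2 fold change of -0.12 ± 0.02 (adjusted p = 4.41e-05) that was -0.04 and did not pass with library totals alone (adjusted p = 0.0783). In all, 4 of 5 genes were lower and 0 higher, where 20.5% of 18218 genes tested were lower and 23.1% higher. With library totals alone 5537 genes were higher and 2441 lower, in place of 4209 and 3741. None of the 5 was over 2-fold apart, against 10.2% of all genes.

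The fold change of Nrxn3 differed between the regions. Its region by genotype interaction over the 15 deep libraries was -0.66 ± 0.04 on the log2 scale (adjusted p = 4.09e-14), and 38.9% of 19831 genes passed this test. The other 4 did not pass: Nlgn1 was at 0.15 ± 0.05 (adjusted p = 0.0141), Nrxn2 at -0.12 ± 0.05 (0.0431), Nlgn3 at -0.06 ± 0.03 (0.127) and Nlgn2 at -0.01 ± 0.07 (0.894, 95% interval -0.16 to 0.13). The Nlgn1 value did pass under 6 other settings, among them DESeq2 (adjusted p = 0.00789).

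Markers of cell types moved in the same libraries. In Cere_Upf3b-KO all 5 markers of granule cells, the most numerous neurons of the cerebellum, fell by 0.93 to 1.17 on the log2 scale and all 4 Purkinje cell markers by 1.41 to 1.57. The granule markers summed to 3515 to 3542 CPM in Cere_Ctrl and 1833 to 1840.3 in Cere_Upf3b-KO, and the Purkinje markers to 6625 to 6766 and 2451 to 2466. Genes common to neurons were split: Rbfox3, an RNA-binding protein of most neurons, fell by 0.70 and Syt1, a calcium sensor of synaptic vesicles, by 0.46, while Snap25, a part of the vesicle fusion machinery, rose by 0.09 and Tubb3, a neuronal tubulin, by 0.39. All 6 genes listed as brainstem and midbrain markers (Slc17a6, Slc6a5, Sst, Tac1, Tph2 and Th) rose, with sums of 56.8 to 59.6 CPM in Ctrl and 413 to 415 in Upf3b-KO. They are not confined to those regions, since they summed to 225.5 to 235.3 CPM in FC_Ctrl. All 4 oligodendrocyte markers rose too, by 1.08 to 1.29, of 4 inhibitory neuron markers 1 rose and 3 fell, and of 4 astrocyte markers 1 rose and 3 fell. Striatal markers rose in 3 of 7 cases and fell in 1. The part of these shifts in the values of the 5 genes was not tested, and in bulk tissue fewer cells of a type and less RNA per cell cannot be told apart.

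Markers also moved in Upf3b-KO frontal cortex. All 7 striatal markers rose, with sums of 145 to 157 CPM in Ctrl and 746 to 759 in Upf3b-KO. All 4 oligodendrocyte markers rose by 0.24 to 0.66 and all 4 astrocyte markers fell by 0.22 to 0.50. Of 3 markers of cortical excitatory neurons, Neurod6 fell by 0.45 and Tbr1 by 0.19, and Emx1 was at 0.17 ± 0.11 and did not pass (adjusted p = 0.219). Beside them, of 4 genes common to neurons 2 rose and 2 fell. The brainstem and midbrain list, with 5 genes tested, had 1 higher and 2 lower. Inhibitory neuron markers rose in 1 of 4 cases and fell in 1, and 0 of 3 microglial markers passed, against 2 of 3 higher in cerebellum. Their part was not tested here either.

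**Figure D2:**
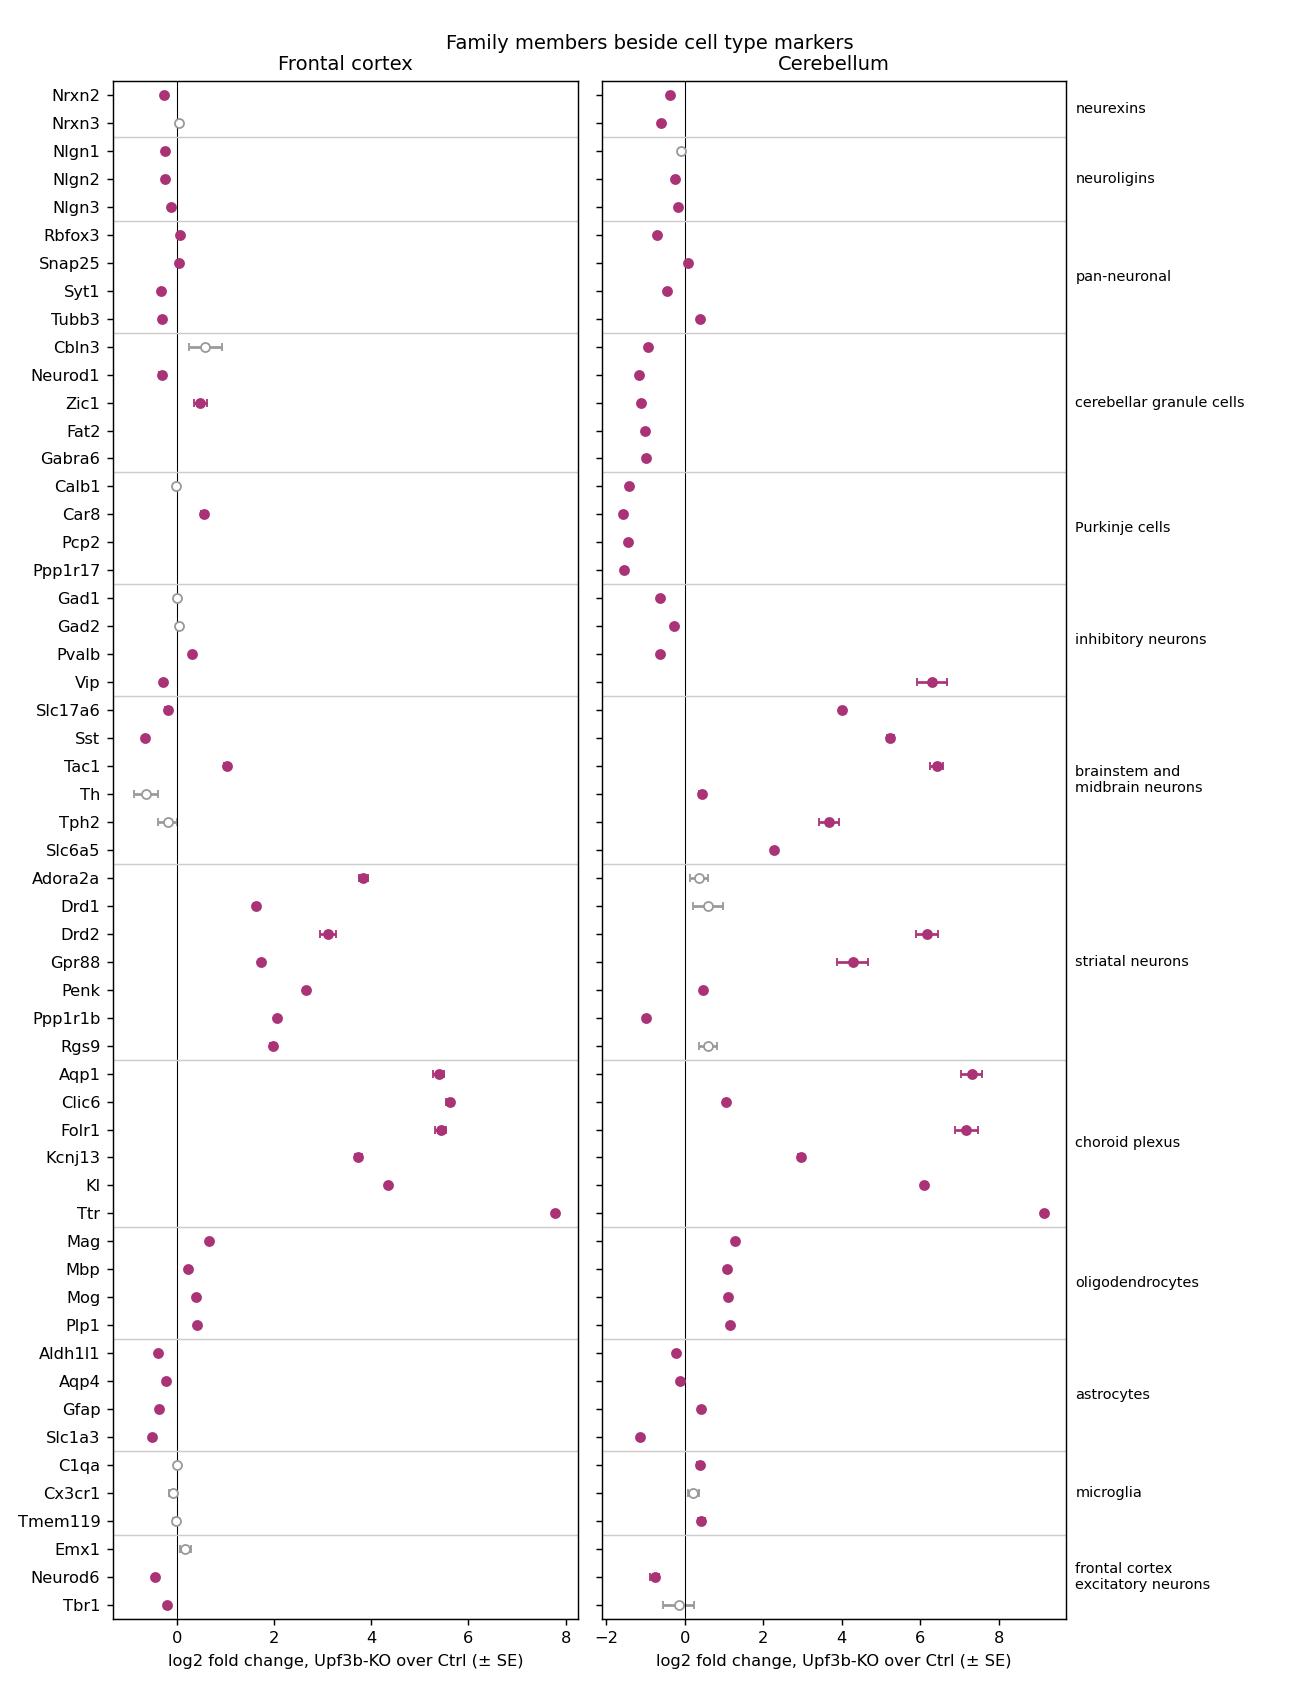
Log2 fold change of Upf3b-KO over Ctrl (points, bars ± SE, each panel on its own scale) for the 5 genes and the cell type markers in frontal cortex and cerebellum; filled points passed an adjusted p of 0.01, and a gene under the count filter has no point. In cerebellum Nrxn3 at -0.60 lay within the range of the 4 genes common to neurons, -0.70 to 0.39. The 5 granule cell markers ran from -1.17 to -0.93.

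Isoforms were examined next, since NMD acts on transcripts. In frontal cortex 29 of the 47 member transcripts passed the count filter and 1 passed the test, Nlgn1-205, a form with both inserts. It measured 56.6, 52.7, 50.4 and 54.4 CPM in Ctrl and 45.5, 46.7, 41.5 and 42.3 in Upf3b-KO, without overlap, with a log2 fold change of -0.35 ± 0.05 (adjusted p = 0.00286, edgeR). The call was lost without FC_Ctrl library 4 (adjusted p = 0.0109) and without FC_Upf3b-KO library 4 (0.0118). It was also lost with library number added to the model as a block. Of 42318 transcripts tested there 9.32% passed, and 4.57% as lower.

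In cerebellum 34 member transcripts passed the filter and 4 the test, all neurexin forms and all lower, where 14.0% of 44388 transcripts passed and 6.22% as lower. Nrxn3-202, a beta form with the splice site 4 exon, measured 104, 101, 114 and 103 CPM in Ctrl and 54.6, 60.0 and 62.0 in Upf3b-KO, 55.7% of Ctrl in the fit (log2 fold change -0.84 ± 0.06, adjusted p = 8.61e-05). Nrxn3-205, the most abundant alpha form, measured 133, 139, 138 and 136 CPM in Ctrl and 103, 106 and 100.3 in Upf3b-KO (-0.41 ± 0.03, adjusted p = 5.02e-05). Nrxn3-208, another alpha form, measured 71.2, 79.6, 76.2 and 84.6 CPM in Ctrl and 54.3, 56.1 and 48.5 in Upf3b-KO (-0.56 ± 0.07, adjusted p = 0.00150). None of the 3 overlapped between the groups. Nrxn2-202, the main beta form of Nrxn2, measured 35.4, 33.6, 31.5 and 35.7 CPM in Ctrl and 22.8, 19.0 and 18.6 in Upf3b-KO, also without overlap (-0.76 ± 0.09, adjusted p = 8.22e-04). All 4 were less than 2-fold apart. With the shallow library added, Nrxn2-202 (adjusted p = 0.0327) and Nrxn3-205 (0.0603) missed the threshold. With library number added to the model as a block, Nrxn2-202 and Nrxn3-208 missed it.

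Single forms were also compared between the regions. The interaction passed for 2 of 38 member transcripts, Nrxn3-205 at -0.44 ± 0.04 (adjusted p = 4.78e-06) and Nrxn2-202 at -0.57 ± 0.12 (adjusted p = 0.00535), against 8.96% of 53206 transcripts. The Nrxn2-202 call was lost on leaving out any 1 of 11 libraries (adjusted p = 0.0101 to 0.0204), with log2 values from -0.66 to -0.51 over all 15 such fits. Nrxn3-202, the beta form that fell in cerebellum, did not pass (-0.35 ± 0.27, adjusted p = 0.523). Its level in frontal cortex was low, at 9.21, 8.20, 5.91 and 4.0 CPM in Ctrl and 5.09, 4.84, 5.57 and 4.84 in Upf3b-KO.

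Of the member transcripts, 2 carried a downstream exon junction (dEJ), that is, a last exon junction at least 50 nt past the stop codon, which marks many NMD targets. They were Nrxn3-208 and Nrxn3-213, which share an alternative coding end of 107 nt, and neither passed the test as higher in Upf3b-KO tissue. Nrxn3-208 fell in cerebellum, as given, and measured 30.8, 26.4, 27.6 and 27.5 CPM in FC_Ctrl and 25.8, 23.2, 27.1 and 34.8 in FC_Upf3b-KO (-0.08 ± 0.12, adjusted p = 0.754). Nrxn3-213 measured 21.6, 27.5, 16.1 and 22.8 CPM in FC_Ctrl and 26.9, 29.3, 28.9 and 26.9 in FC_Upf3b-KO (0.28 ± 0.14, adjusted p = 0.260). In cerebellum it was at 24.2 ± 3.59 CPM in Ctrl and 21.2 ± 3.19 in Upf3b-KO (-0.19 ± 0.15, adjusted p = 0.439). Transcripts with the 107-nt end took 28.5 ± 1.46% of the counts of complete Nrxn3 coding transcripts in FC_Ctrl and 29.3 ± 1.59% in FC_Upf3b-KO, which overlapped. In Cere_Ctrl they took 26.4 ± 0.444% and in Cere_Upf3b-KO 28.1 ± 0.352%, which did not.

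**Figure D3:**
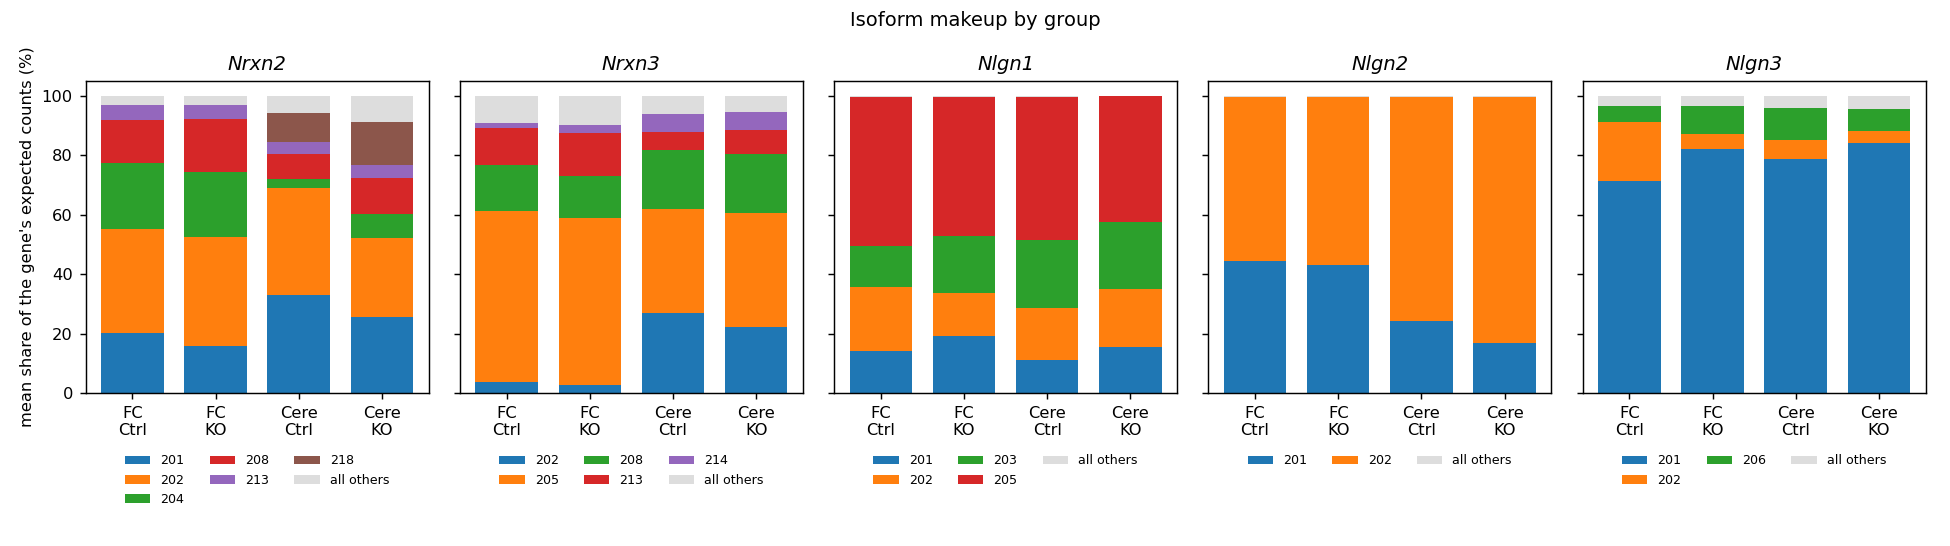
Mean share of each gene's counts (%) taken by each transcript with at least 5% in some group, as stacked bars by group; gray is all other transcripts. Nrxn3-202 held 3.78% in FC_Ctrl and 27.0% in Cere_Ctrl, and 2.61% and 22.1% in the Upf3b-KO tissues.

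Isoform usage, the change of a transcript relative to the rest of its gene, passed for 0 of 29 member transcripts in frontal cortex and 0 of 34 in cerebellum (edgeR diffSpliceDGE, adjusted p under 0.01). At an unadjusted p under 0.05 the counts were 2 and 3, and the smallest adjusted p values were 0.683 and 0.114. Over all transcripts tested, 0.581% of 34066 passed in frontal cortex and 0.780% of 36782 in cerebellum.

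Between the Ctrl tissues, 8 of 31 member transcripts passed the usage test, all of them neurexin forms, beside 2.35% of 33949 transcripts in all. Of the 8, 2 were at 0 in FC_Ctrl and passed the count filter only through Cere_Ctrl, so the count of 8 is not set against that share. Relative to its gene and on the log2 scale, Nrxn3-202 rose in cerebellum by 2.82 (adjusted p = 5.26e-29) and Nrxn3-214, another beta form, by 1.64 (6.35e-05). Nrxn3-205 fell by 0.72 (6.38e-09) and Nrxn3-213 by 0.99 (5.00e-04). Nrxn3-201, whose coding start lies between those of the alpha and beta forms, fell by 3.78 (1.83e-06). Nrxn2-204, an alpha form without the splice site 4 exon, fell by 2.85 (1.47e-10), and its level was 17.4 ± 2.55 CPM in FC_Ctrl and 2.81 ± 1.07 in Cere_Ctrl. Those at 0 in all FC_Ctrl libraries had to differ once past the filter. Nrxn2-218 was at 11.1, 6.95, 9.76 and 8.58 CPM in Cere_Ctrl, at least 101-fold higher than 3 counts per FC_Ctrl library, and Nrxn3-210 at 5.15, 3.62, 2.61 and 2.63 CPM, at least 38.8-fold higher.

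The beta first coding exon of Nrxn3, printed above, is held by Nrxn3-202, Nrxn3-203 and Nrxn3-214. Transcripts that hold it took 10.5, 9.01, 10.7 and 8.13% of the counts of complete Nrxn3 coding transcripts in FC_Ctrl and 37.4, 35.9, 37.8 and 37.2% in Cere_Ctrl. In Upf3b-KO the shares were 9.37, 8.74, 9.49 and 9.11% in FC and 31.1, 30.6 and 32.5% in Cere. The FC genotypes overlapped, and each Cere_Upf3b-KO library lay under each Cere_Ctrl library. The beta exon of Nrxn2 held 38.3 ± 3.18% in FC_Ctrl, 39.8 ± 1.57% in FC_Upf3b-KO, 39.3 ± 2.25% in Cere_Ctrl and 29.8 ± 3.07% in Cere_Upf3b-KO, and here the Ctrl tissues overlapped and the cerebellar genotypes did not. Segment shares are given with no test, since they were chosen after the values were seen.

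Classes of coding start were compared over all transcripts of a gene. Alpha-type transcripts, whose coding sequence starts within 10 kb of that of the longest coding form, held 73.0 ± 1.10% of Nrxn3 counts in FC_Ctrl and 54.8 ± 1.48% in Cere_Ctrl. The two-sided exact permutation p was 0.0286, the smallest that 4 against 4 libraries allow, uncorrected over 14 shares compared. Forms with a later coding start, which take in the beta forms and Nrxn3-201, Nrxn3-210 and Nrxn3-213, held 24.7 ± 1.62% and 43.9 ± 1.74% (exact p = 0.0286). The alpha-type share of Nrxn3 was 70.5 ± 0.522% in FC_Upf3b-KO, below FC_Ctrl (exact p = 0.0286, uncorrected over 15 shares). In Cere_Upf3b-KO it was 58.4 ± 2.07%, with a mean above that of Cere_Ctrl (exact p = 0.114). The later-start share of Nrxn2 was 27.0 ± 3.26% in Cere_Upf3b-KO and 36.3 ± 2.03% in Cere_Ctrl (exact p = 0.0571, the smallest that 4 against 3 allow).

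**Figure D4:**
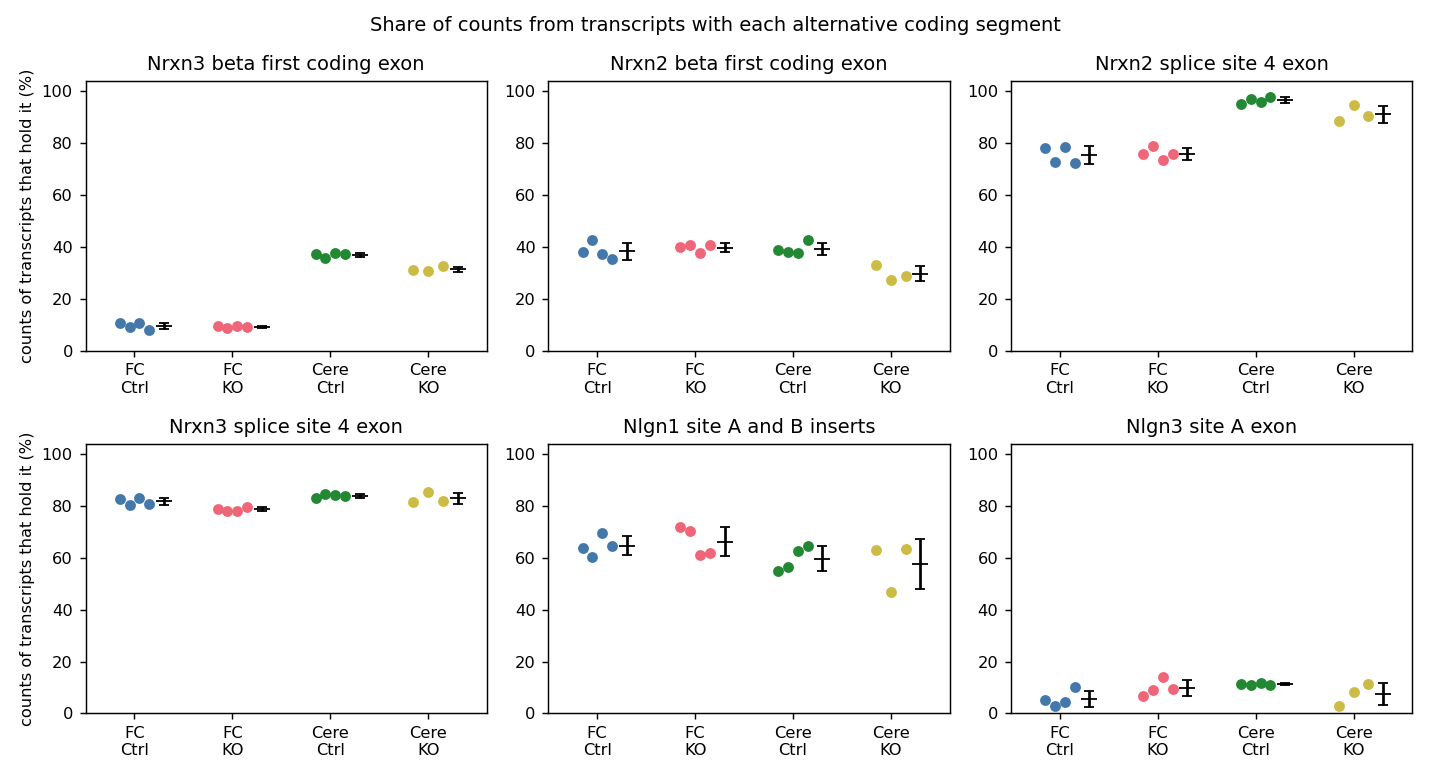
Share of counts (%) from transcripts that hold each alternative segment, among complete coding transcripts that span it or start at it; points are the 15 deep libraries and black marks mean ± SD. The Nrxn3 beta exon had means of 9.59% in FC_Ctrl and 37.1% in Cere_Ctrl, and the Nrxn2 splice site 4 exon 75.5% and 96.6%.

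The splice site 4 exons of Nrxn2 and Nrxn3 had different patterns. Transcripts with the Nrxn2 exon took 78.3, 72.6, 78.5 and 72.4% in FC_Ctrl and 95.3, 97.1, 96.0 and 97.9% in Cere_Ctrl, without overlap. In Upf3b-KO they took 75.8, 79.1, 73.4 and 75.7% in FC, with overlap, and 88.4, 94.7 and 90.4% in Cere, all below Ctrl. The forms without the exon are Nrxn2-203 and Nrxn2-204. Nrxn2-204 is also the only complete coding form that skips a 72-nt and a 27-nt exon of Nrxn2. Transcripts with those exons took 61.0 ± 6.15% in FC_Ctrl, 94.7 ± 1.79% in Cere_Ctrl and 87.5 ± 4.98% in Cere_Upf3b-KO, the latter with overlap. The site 4 share of Nrxn2 is therefore not independent of the level of this 1 transcript. The Nrxn3 exon was at 81.8 ± 1.38% in FC_Ctrl and 78.7 ± 0.672% in FC_Upf3b-KO, which did not overlap, and at 84.0 ± 0.741% in Cere_Ctrl and 82.9 ± 2.03% in Cere_Upf3b-KO, which did. The Ctrl tissues overlapped for the Nrxn3 exon by counts, but with counts divided by transcript length it was at 76.3 ± 1.62% in FC_Ctrl and 81.1 ± 0.785% in Cere_Ctrl, without overlap.

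The inserts of Nlgn1 overlapped between groups and the site A exon of Nlgn3 was the less common form. The annotated Nlgn1 forms hold both the site A exon and the site B segment (Nlgn1-201 and Nlgn1-205) or neither (Nlgn1-202 and Nlgn1-203), so 1 share describes both. It was 64.6 ± 3.68% in FC_Ctrl, 66.3 ± 5.66% in FC_Upf3b-KO, 59.7 ± 4.75% in Cere_Ctrl and 57.7 ± 9.51% in Cere_Upf3b-KO, and the genotypes of each region and the Ctrl tissues overlapped. Per length the shares were 54.3 ± 6.51%, 62.1 ± 8.11%, 51.8 ± 11.9% and 52.1 ± 16.7% in the same order, also with overlap. The site A exon of Nlgn3 was in 5.59 ± 3.18% of counts in FC_Ctrl, 9.79 ± 2.94% in FC_Upf3b-KO, 11.3 ± 0.458% in Cere_Ctrl and 7.55 ± 4.16% in Cere_Upf3b-KO. Here the Ctrl tissues did not overlap and the genotypes did. Nlgn2 has no such segment among its complete coding transcripts. Its forms Nlgn2-201 and Nlgn2-202 have the same coding start and length, and Nlgn2-201 held 44.6 ± 6.55% of the gene's counts in FC_Ctrl, 43.2 ± 5.17% in FC_Upf3b-KO, 24.4 ± 4.48% in Cere_Ctrl and 16.8 ± 7.66% in Cere_Upf3b-KO.

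Nlgn3-202, a form without the printed site A exon, varied widely between libraries of a group. It measured 51.4, 26.3, 42.5 and 42.8 CPM in FC_Ctrl and 1.45, 0.00261, 0.209 and 38.3 in FC_Upf3b-KO, so that Upf3b-KO libraries 1 to 3 were near 0 and library 4 lay within the Ctrl range. The log2 fold change was -2.09 ± 1.41 and did not pass (adjusted p = 0.421). Without library 4 it was -6.22 ± 0.88 (adjusted p = 0.00481). In Cere_Ctrl the form ranged from 0.0110 to 30.7 CPM. Nlgn3-201, the main form, measured 183, 174, 164 and 137 CPM in the same FC_Upf3b-KO libraries, lowest in library 4, and the gene sum was 196 to 204 CPM. Nlgn3-201 and Nlgn3-202 share most of their exons, and how RSEM split shared reads between them was not tested.

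The other forms with at least 5% of a gene passed neither test between genotypes. Nrxn2-201, an alpha form with the splice site 4 exon, was at 16 ± 3.90 CPM in FC_Ctrl and 10.9 ± 3.84 in FC_Upf3b-KO (-0.62 ± 0.29, adjusted p = 0.228). In cerebellum it was at 31.0 ± 5.96 CPM in Ctrl and 19.1 ± 4.66 in Upf3b-KO (-0.71 ± 0.21, adjusted p = 0.0532). Nrxn2-208, also an alpha form with that exon, was at 11.3 ± 2.87 and 12.3 ± 4.44 CPM in the FC groups and 7.85 ± 3.22 and 9.25 ± 8.0 in the Cere groups, Ctrl first. Nlgn1-202, without the inserts, was at 23.0 ± 4.47 CPM in FC_Ctrl and 13.7 ± 5.12 in FC_Upf3b-KO (-0.81 ± 0.28, adjusted p = 0.0923), and Nlgn1-203, the other such form, at 14.6 ± 1.45 and 18.0 ± 0.752. Nlgn3-206, which holds the site A exon, was at 11.1 ± 6.17 CPM in FC_Ctrl, 18.9 ± 5.42 in FC_Upf3b-KO, 17.4 ± 0.699 in Cere_Ctrl and 10.5 ± 5.74 in Cere_Upf3b-KO. Nlgn2-202, the main Nlgn2 form in the cerebellum, was at 16.3 ± 0.377 CPM in Cere_Ctrl and 15.7 ± 1.09 in Cere_Upf3b-KO.

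The remaining 27 member transcripts held under 5% of their gene in every group, 12 of them Nrxn2 and 9 Nrxn3 forms. Their highest group means were those of Nrxn3-203, at 14.7 CPM in Cere_Ctrl, and Nlgn3-203, at 7.33 CPM in FC_Ctrl. None passed a test between genotypes (edgeR), where 1 of 10 tested in frontal cortex and 3 of 14 in cerebellum had an unadjusted p under 0.05. Nrxn3-201 was at 0.896 ± 0.425 CPM in Cere_Ctrl and 3.19 ± 0.337 in Cere_Upf3b-KO (1.83 ± 0.41, adjusted p = 0.0172).

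The partners of the 2 families were described from lists of 8 secreted, 11 postsynaptic and 9 intracellular partners and 3 splicing regulators. In frontal cortex 22 of these 31 genes passed the test, 1 higher and 21 lower, with a median log2 fold change of -0.22 beside 0.00 over all genes. In cerebellum 25 passed, 13 higher and 12 lower, with a median of 0.07 beside 0.01. The shares of all genes that passed are those given with each region.

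Among the secreted partners, the cerebellins moved in opposite directions. Cbln1, a neurexin ligand released by granule cells, measured 386, 381, 384 and 390.1 CPM in Cere_Ctrl and 205, 195 and 196 in Cere_Upf3b-KO and fell by 1.01 ± 0.02. Cbln2 and Cbln4, other cerebellins, rose in Cere_Upf3b-KO from 0.189 ± 0.0192 to 16.6 ± 0.863 CPM and from 0.730 ± 0.120 to 20.4 ± 1.47 CPM. In all, 1 of 8 secreted partners fell and 6 rose in cerebellum. In frontal cortex 6 of 8 fell and 1 rose, with C1ql2, a secreted synaptic organizer, down by 1.78 ± 0.04, Cbln1 down by 1.16 ± 0.12 and Cbln2 up by 0.20 ± 0.05.

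Postsynaptic partners fell in 7 of 11 cases and rose in 0 in frontal cortex, among them Lrrtm1, a leucine-rich ligand of neurexins, by 0.51 ± 0.03 and Clstn1, a calsyntenin, by 0.34 ± 0.02. In cerebellum 4 of 11 fell and 4 rose. Lrrtm3 fell by 0.59 ± 0.03 and Dag1, dystroglycan, by 0.46 ± 0.02, whereas Lrrtm1 rose by 1.14 ± 0.10 and Mdga2, which binds neuroligins, by 0.57 ± 0.04. Of 9 intracellular partners 5 fell and 0 rose in frontal cortex, including Dlg4, the scaffold PSD-95, by 0.22 ± 0.03 and Apba1, a presynaptic adaptor, by 0.39 ± 0.02. In cerebellum 5 fell and 2 rose, and the related adaptors Lin7a, Lin7c and Lin7b changed by -0.99 ± 0.03, -0.83 ± 0.02 and 1.36 ± 0.10. Gphn, gephyrin, the scaffold of inhibitory synapses, fell there by 0.18 ± 0.04.

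Khdrbs1, Khdrbs2 and Khdrbs3 encode RNA-binding proteins known to favor skipping of the splice site 4 exon. Khdrbs3 was at 54.7 ± 2.01 CPM in FC_Ctrl and 2.67 ± 0.591 in Cere_Ctrl, a log2 difference of -4.43 ± 0.08 for cerebellum minus frontal cortex (adjusted p = 6.12e-21). It was at 8.08 ± 0.452 CPM in Cere_Upf3b-KO and rose there by 1.56 ± 0.15 (adjusted p = 1.95e-08), while Khdrbs1 fell by 0.50 ± 0.02 and Khdrbs2 by 0.49 ± 0.07. All 3 fell in Upf3b-KO frontal cortex, by 0.18 to 0.39. Beside them, the share with the Nrxn2 exon was higher in Cere_Ctrl than in FC_Ctrl and lower in Cere_Upf3b-KO than in Cere_Ctrl, whereas that of the Nrxn3 exon overlapped in both of these comparisons by counts, though not between the Ctrl tissues per length, and was lower in FC_Upf3b-KO than in FC_Ctrl. A relation between these values was not tested.

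**Figure D5:**
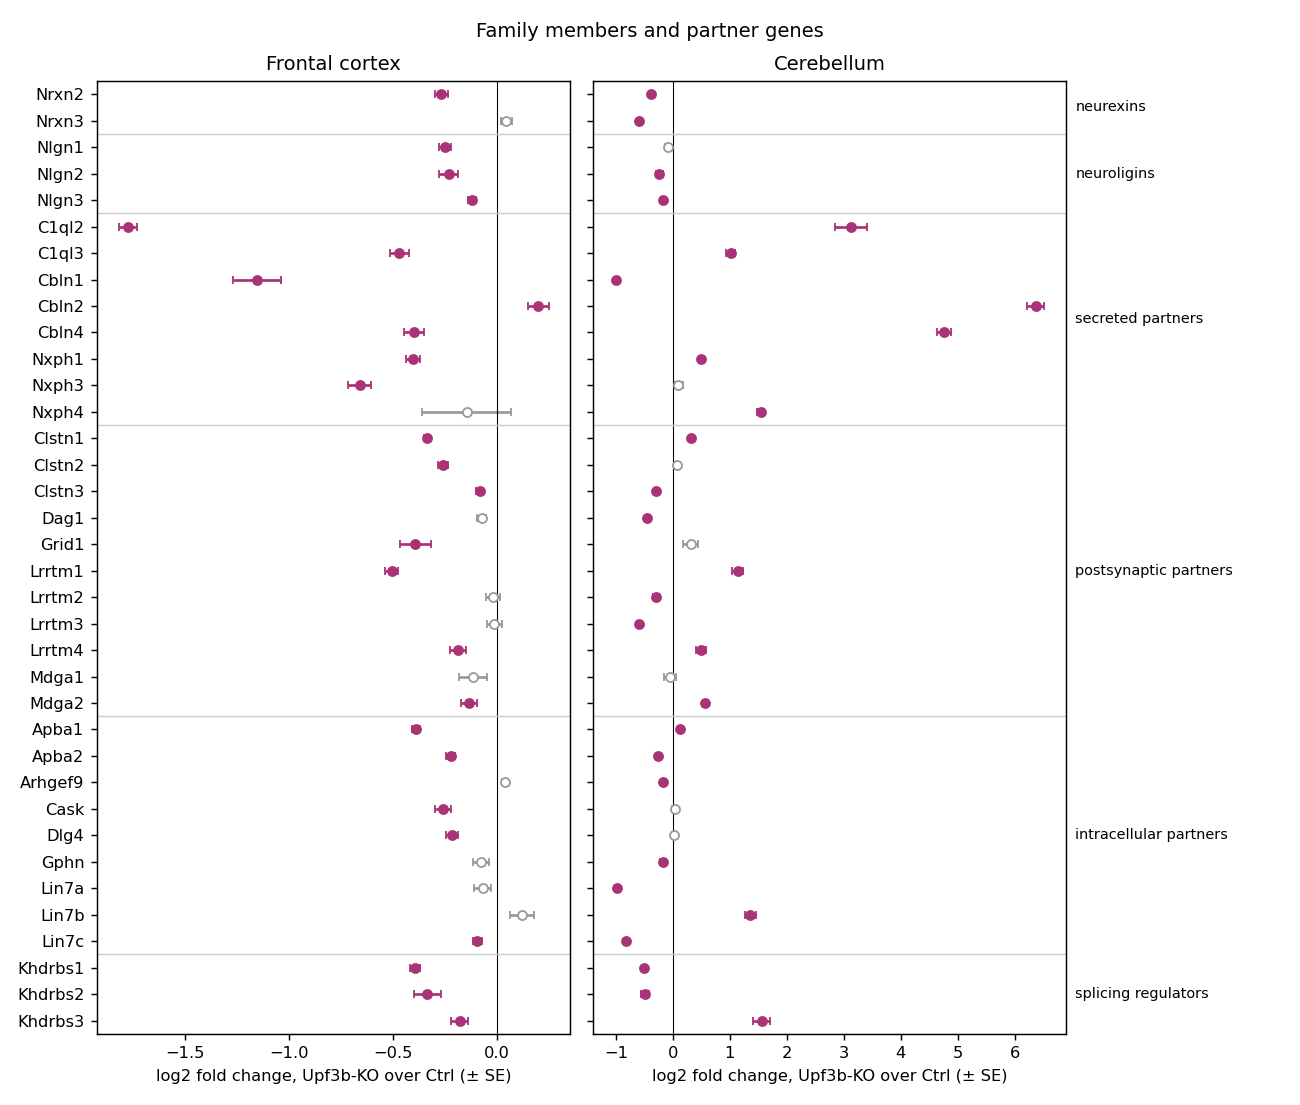
Log2 fold change of Upf3b-KO over Ctrl (points, bars ± SE, each panel on its own scale) for the 5 genes and their partner lists; filled points passed an adjusted p of 0.01. In frontal cortex 21 of 31 partners passed below 0, and in cerebellum 12 passed below 0 and 13 above, from Cbln1 at -1.01 to Cbln2 at 6.37.

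The comparison of the Ctrl tissues shares its libraries with both genotype comparisons, so their values are set side by side only. Genes whose levels ran most like each member were taken from 10331 genes with a mean CPM of 10 or more, by Pearson's r of log2(CPM + 0.5) over the 15 deep libraries. For Nrxn3 they were Afap1l2 (r = 0.997), Adam22 (r = 0.996) and Rictor (r = 0.995), and for Nrxn2 Cbx7 (r = 0.977), Slc7a5 (r = 0.970) and Ak4 (r = 0.967). For Nlgn1 they were Olfm1 (r = 0.995), Ksr1 (r = 0.995) and Slc35f1 (r = 0.995), for Nlgn2 Cmtm4 (r = 0.975), Slc25a22 (r = 0.974) and Tmod2 (r = 0.971), and for Nlgn3 Wasf1 (r = 0.990), Cck (r = 0.990) and Plppr4 (r = 0.990). The points fall into 4 groups, so these values mainly follow the order of the group means.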

How the data were processed

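Total RNA of frontal cortex and cerebellum was depleted of ribosomal RNA and sequenced in pairs by the authors, who aligned reads to GRCm39 with STAR (2.5.2b, per the processing notes) and ran RSEM. What they deposited per Ensembl transcript are expected counts, not scaled and not filtered. RSEM divides reads among annotated isoforms, so a form's value depends on the annotation, and whether strand was used is not given in the sources used here. Symbols, classes and coordinates came from GENCODE vM39, another release than theirs (141102 of 142435 transcripts matched, with 99.3 to 99.4% of counts). The members and lists were chosen with earlier results of these data known, and 2 list genes and 1 exon sequence are not reported here.

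Counts were rounded, summed per gene or kept per transcript, filtered (filterByExpr, minimum count 10, total 15), scaled by TMM and tested in R 4.3.3 with edgeR 4.0.16 (glmQLFit and glmQLFTest, diffSpliceDGE for usage), Benjamini-Hochberg over all features. SE is the log2 fold change over the square root of F. Scripts were tested on simulated data. Shares were compared by two-sided exact permutation tests, with raw p values, in place of the planned correction over the family. Segments are alternative coding stretches of at most 300 nt, added after the data were seen. Named are the 5 genes, transcripts with at least 5% of their gene in a group or past a test, and list genes beside a result. Alternatives were DESeq2 1.42.0, RLE scaling, library totals and TPM of coding transcripts only (both added later), no or a stricter filter, other thresholds, the shallow library, 1 fit of all deep libraries, a replicate block, leaving out each library, and class and segment shares per length.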

Additional observations from a re-analysis of the deposited data

Results flagged for a closer look

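In 2 cases 1 library of 4 stood far from the rest of its group, by a Dixon test at the 95% level over 75 groups of gene or transcript levels. Chance alone marks about 1 group in 20. Nlgn1 was at 97.5 CPM in FC_Upf3b-KO library 4 and at 93.5, 93.0 and 93.0 in libraries 1 to 3, and all 4 lay under the FC_Ctrl range. Nlgn3-202 was at 38.3 CPM in the same library and at 1.45, 0.00261 and 0.209 in the others, and its usage change in frontal cortex was -1.98 with that library (adjusted p = 0.731) and -6.10 without it (adjusted p = 6.55e-07, edgeR diffSpliceDGE). Nlgn3-201, which shares most of its exons, was lowest in that library, and this p does not cover an error in how RSEM split reads between them.

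The change from Ctrl to Upf3b-KO differed between the regions, by the interaction term in edgeR, for Nrxn3 (-0.66 on the log2 scale, cerebellum minus frontal cortex), for Nrxn2-202 (-0.57) and for Nrxn3-205 (-0.44). The Nrxn2-202 call was lost on leaving out any 1 of 11 libraries. Cell type markers also differed between the genotypes of each region, and their part in these values was not tested. Nrxn3 lay under Ctrl in 3 of 3 Upf3b-KO libraries of the cerebellum and above Ctrl in 4 of 4 of the frontal cortex in CPM. With TMM scaling its log2 fold change in frontal cortex was 0.05 ± 0.03 and did not pass (adjusted p = 0.157, edgeR).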

How the results depend on the processing

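Requiring in addition a fold change over 2 in edgeR left 0 genes in frontal cortex, 0 in cerebellum, 2 between the Ctrl tissues and 0 for the interaction. It left 0, 0 and 0 transcripts in the 3 genotype tests. The study set that fold limit with DESeq2 for genes and EBSeq for transcripts, so these counts are not its calls. With DESeq2 the interaction passed for 2 genes, and 2 transcripts passed in frontal cortex, 7 in cerebellum and 6 for the interaction. With no filter on low counts the interaction passed for 2 genes and 1 transcript, and with an adjusted p under 0.05 for 3 and 5. With the shallow library 2 transcripts passed in cerebellum, where Nrxn2-202 (adjusted p = 0.0327) and Nrxn3-205 (0.0603) missed the threshold, and 0 for the interaction. In 1 fit of all deep libraries 1 transcript, Nrxn3-210, passed the usage test for frontal cortex. It was at 0 in all FC_Ctrl libraries, was under the count filter in the fit of frontal cortex alone and entered the joint fit through cerebellum, so no change is read from it. Leaving out 1 library gave 1 to 2 genes and 1 to 2 transcripts for the interaction, 0 to 1 transcript in frontal cortex and 0 to 1 with changed usage there, Nlgn3-202 without FC_Upf3b-KO library 4. The interaction of Nlgn2, far from the threshold, was 0.012 with no filter and ran from -0.060 to 0.030 when 1 library was left out. The difference in share of alpha-type Nrxn3 in frontal cortex was -3.69 percentage points per length in place of -2.51, and that of later-start Nrxn3 between the Ctrl tissues 21.8 in place of 19.1. In cerebellum the difference of alpha-type Nrxn2 was 4.42 per length and 11.4 with the shallow library, in place of 7.48. With the shallow library that of later-start Nrxn2 was -16.1 in place of -9.35, and that of alpha-type Nrxn3 1.07 in place of 3.61. The cause was not tested for any of these.

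Libraries with the same number did not deviate together (r = -0.10 to 0.15), so the numbers were not taken as pairs. With the replicate block 0 transcripts passed in frontal cortex, 2 in cerebellum and 1 for the interaction, and the cerebellar calls of Nlgn2 (adjusted p = 0.0106), Nrxn2-202 (0.0235) and Nrxn3-208 (0.0267) were lost. Libraries of a group differed beyond sampling noise (chi-square per degree of freedom 2.74 to 3.79). Of the counts and shares recomputed, 243 kept their direction and side of the threshold or stayed within 1.5 times the count or 1 SD of the share, 24 were counts lower by more than that, 13 counts higher by more than that and 6 shares that moved by more than 1 SD. Of the values of single genes or transcripts, 525 kept direction and side, 30 no longer passed, 7 newly passed and 4 changed sign. Depth limits the minor isoforms and everything in the shallow library, where the 5 genes held 1 to 15 counts.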
